A study of Caenorhabditis elegans with 2 samples.

Results

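Intronic ChIP-seq peaks that lie away from gene starts were examined for FAX-1, a nuclear hormone receptor of C. elegans. A region was taken when its summit, the position of strongest enrichment, fell inside a protein-coding gene but in no protein-coding exon. The summit also had to lie more than 500 bp from the 5′ end of each protein-coding transcript and from each tRNA, snoRNA and snRNA gene. Of 12691 nuclear regions in the pooled peak list of the authors, 2960 met these conditions. Of these, 61 (2.06%, 95% Wilson interval 1.61 to 2.64%) overlapped the authors' list of reproducible peaks, against 6.17% of all nuclear regions. These 61 are called final regions, and the other 2899 weaker regions.

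The worms were strain OP164 hermaphrodites, collected as late embryos 4 h after synchronization by egg bleaching. They stably expressed FAX-1 with GFP and FLAG tags at its C-terminus, and an antibody against GFP precipitated sonicated chromatin of whole organisms. The single group held 2 biological replicates, and no untagged strain or other condition was analysed here. Signal below is the enrichment value that the authors' peak caller gave each peak, on a scale the sources used here do not state. Since the final list holds the strongest 830 pooled peaks, final against weaker is a comparison of strong with weak enrichment in the same data, and differences in signal between them are set by that choice. No p value is given, since the regions come from 1 pooled list. Intervals cover counting error only, and regions that share a gene or a sequence are not independent.

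FAX-1 belongs to the receptor class of vertebrate photoreceptor-specific nuclear receptor, whose members recognise half-sites such as AAGTCA, and in worms it is known for its part in axon pathfinding and interneuron identity. Introns of C. elegans are mostly short, and the long ones, often the first, can carry enhancers. Introns can also hold small RNA genes, some of which RNA polymerase III transcribes from internal promoter elements called the A box and the B box.

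Windows reaching 75 bp to each side of the summit are shown for 8 of the 12 strongest final regions. Those of the 3 final regions with the B box core GGTTCGA are shown as well. Some printed windows, such as those of hmt-1 and pqn-41, aligned with no other final region. Some final regions that did align with another are not shown. The printed windows read 5′ to 3′ on the forward strand of ce11 (WBcel235), from the RefSeq genome sequence. Capitals mark, on either strand, matches to GAGAGA, to the nuclear receptor half-site AGGTCA, to GGTTCGA, and to 3 further sequences: GATCTGC, then also ACCTCAC, and lastly CACTGTGC. These 3 were chosen after the windows had been seen. Each window is named by its host gene.
M01F1.8 (chrIII:3499946-3500096): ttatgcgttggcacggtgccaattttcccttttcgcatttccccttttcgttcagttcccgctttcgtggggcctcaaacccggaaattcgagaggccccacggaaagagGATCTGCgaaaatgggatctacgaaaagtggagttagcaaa
tbc-9 (chrIV:13487136-13487286): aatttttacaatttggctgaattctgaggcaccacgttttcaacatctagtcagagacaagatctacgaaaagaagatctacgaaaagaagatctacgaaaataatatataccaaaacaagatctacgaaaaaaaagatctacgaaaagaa
hmt-1 (chrIII:11091797-11091947): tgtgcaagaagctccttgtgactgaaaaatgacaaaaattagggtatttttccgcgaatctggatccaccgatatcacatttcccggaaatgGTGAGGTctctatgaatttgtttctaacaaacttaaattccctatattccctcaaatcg
hmt-1 (chrIII:11093581-11093731): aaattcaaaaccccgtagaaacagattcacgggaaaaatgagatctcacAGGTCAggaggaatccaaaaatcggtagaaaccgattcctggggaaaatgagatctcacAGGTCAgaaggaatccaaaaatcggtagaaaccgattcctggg
W09B6.4 (chrII:1134635-1134785): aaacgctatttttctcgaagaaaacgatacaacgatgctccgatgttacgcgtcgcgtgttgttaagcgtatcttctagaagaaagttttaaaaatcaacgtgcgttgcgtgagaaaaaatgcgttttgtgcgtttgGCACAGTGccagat
klp-6 (chrIII:5031619-5031769): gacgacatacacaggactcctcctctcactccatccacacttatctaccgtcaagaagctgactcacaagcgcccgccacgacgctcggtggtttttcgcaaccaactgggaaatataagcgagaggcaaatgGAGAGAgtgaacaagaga
sfa-1 (chrIV:17108329-17108479): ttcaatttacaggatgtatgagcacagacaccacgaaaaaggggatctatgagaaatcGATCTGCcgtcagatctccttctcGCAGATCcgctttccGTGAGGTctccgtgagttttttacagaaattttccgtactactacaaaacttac
pqn-41 (chrIII:1921361-1921511): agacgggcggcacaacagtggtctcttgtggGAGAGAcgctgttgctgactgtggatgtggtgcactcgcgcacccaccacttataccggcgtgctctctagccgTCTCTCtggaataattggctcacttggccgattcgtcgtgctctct
unc-104 (chrII:7001536-7001686): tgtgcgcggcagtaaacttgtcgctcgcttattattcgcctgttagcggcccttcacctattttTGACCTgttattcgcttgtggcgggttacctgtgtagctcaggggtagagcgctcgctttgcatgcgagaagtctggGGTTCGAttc
Y57G11C.22 (chrIV:14838306-14838456): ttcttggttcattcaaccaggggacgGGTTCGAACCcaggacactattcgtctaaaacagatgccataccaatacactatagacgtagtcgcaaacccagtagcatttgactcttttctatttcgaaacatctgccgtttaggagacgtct
mdt-26 (chrII:5661826-5661976): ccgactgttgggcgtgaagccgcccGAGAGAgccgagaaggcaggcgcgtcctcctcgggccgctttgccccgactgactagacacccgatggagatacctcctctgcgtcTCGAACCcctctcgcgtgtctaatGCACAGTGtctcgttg

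The rule removed strong regions more often than weak ones. Of nuclear summits in a protein-coding gene and outside exons, 204 were final and 3924 weaker. Distance from transcript 5′ ends left 135 final and 2981 weaker regions, and distance from tRNA, snoRNA and snRNA genes left the 61 and 2899. Final regions therefore had a density of 2.33 per Mb in the 26.2 Mb of intron that fulfilled the rule, against 7.81 final regions per Mb over the nuclear genome. All pooled regions had a density of 113 per Mb in these introns, against 127 per Mb over the genome. Among the other classes of nuclear region, 43.0% were final within 500 bp of a tRNA, snoRNA or snRNA gene, 9.61% near a protein-coding 5′ end, 3.55% between genes and 0.265% in protein-coding exons. At the distance limit itself, 7 final and 174 weaker regions lay 401 to 500 bp from the nearest 5′ end, just outside the rule. Just inside it, at 501 to 600 bp, lay 6 final and 179 weaker regions.

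The strongest intronic region stood far above the rest. Its summit lay at chrIII:3500021, in the last of 4 introns of M01F1.8, with a pooled signal of 1220. Its peaks had signals of 826 in replicate 1 and 391 in replicate 2, and ranked 4 and 5 in their lists. The next intronic region, in intron 5 of W05H12.1, had a pooled signal of 326 and ranked 77 and 71 in replicates 1 and 2. After it came intron 2 of eif-3.I, which encodes a subunit of translation initiation factor eIF3, with a pooled signal of 313. Next was intron 10 of tbc-9, a gene of the TBC family of Rab GTPase activators, with a pooled signal of 308. The remaining 57 final regions had pooled signals between 99 and 260.0, and the median over all 61 was 126.

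**Figure D1:**
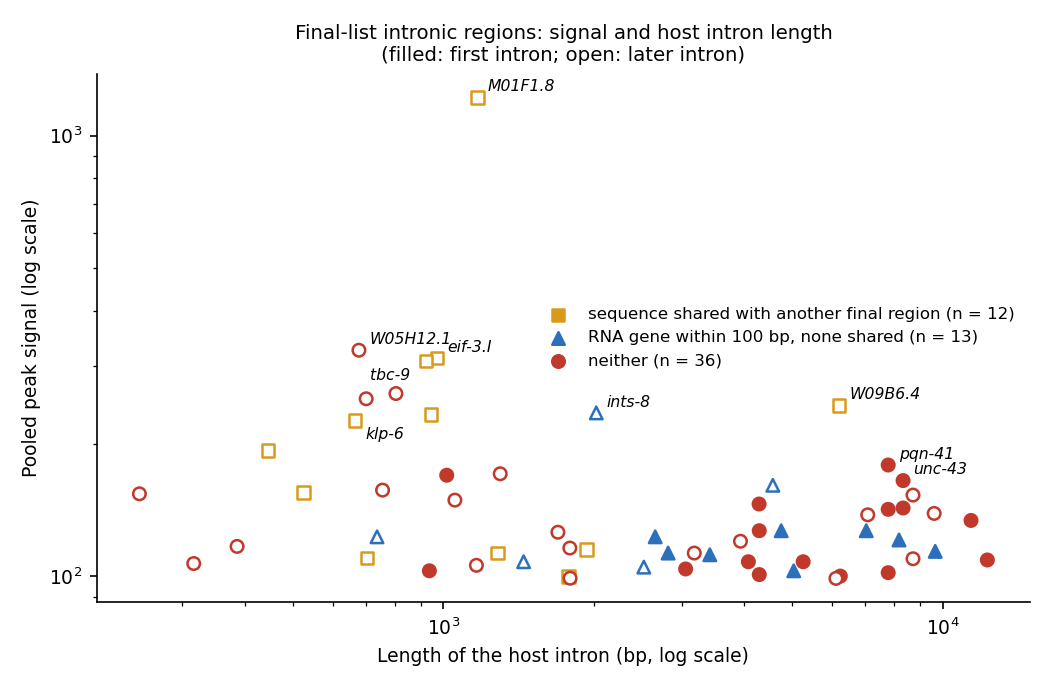
Pooled peak signal (vertical, log scale) against the length of the host intron in bp (horizontal, log scale) for the 61 final intronic regions, 1 point a region. Squares mark the 12 regions whose window aligned with that of another final region, triangles 13 others with an annotated RNA gene within 100 bp, and circles the other 36; filled points lie in first introns. M01F1.8 stands alone at 1220, and the squares are all open and sit mostly in introns under 2000 bp.

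Sequence shared between the strongest regions was the first pattern. The window of 12 of the 61 final regions aligned with the surroundings of another final summit, in 20 pairs. These alignments were as short as 39 bp and as low as 76.2% in identity, so they are looser than the similar sequence counted below. No such count is given for weaker regions. With a limit of 150 bp around the other summit, the 12 fell into 1 family of 8 and 2 pairs. The 12 had a median pooled signal of 209.8 and a median host intron of 958 bp, and 0 of them lay in a first intron. The other 49 had a median signal of 123 and a median intron of 3934 bp, with 24 in first introns.

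Within the family of 8, W09B6.4, duo-3 and F23B12.4 were close to identical. The W09B6.4 window matched the duo-3 region at 97.3% identity over 149 bp and the F23B12.4 region at 98% over 149 bp, so 3 peaks on 3 chromosomes carry nearly the same letters. Their pooled signals were 244 at W09B6.4, 233 at duo-3 and 113 at F23B12.4. The same window aligned with the M01F1.8 region at 86.5% identity over 148 bp, ending 55 bp from that summit. It also aligned with the regions in eif-3.I (76.2% over the whole window) and Y45G5AM.9 (87.7% over 65 bp). The window of pad-1, a gene needed for embryonic patterning, aligned with the M01F1.8 region at 84.5% over 71 bp. The window of sfa-1, which encodes a splicing factor, shared 39 bp at 89.7% with Y45G5AM.9. GATCTGC stood in 4 of these windows, those of M01F1.8, sfa-1, Y45G5AM.9 and pad-1, and in 0.621% of weaker regions.

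Part of this family lies in annotated repeats, and part of it resembles annotated RNA genes elsewhere. The W09B6.4 and duo-3 windows aligned with the snoRNA gene Y66H1B.6 and with the ncRNA genes Y116F11B.24 and Y38H8A.10, at identities of up to 100%. Y38H8A.10 lies in the host intron of the final region in tbc-9, 204 bp from that summit. That is beyond the 150 bp used for pairs, so tbc-9 was not counted in this family. The F23B12.4 window aligned with Y116F11B.24 at up to 100%, and the eif-3.I window with Y66H1B.6 at up to 95.6%. The lengths of these alignments to RNA genes are not given, so a high identity can cover only part of a window. The reference marks as repeat 87.4% of the W09B6.4 window, 85.4% of the F23B12.4 window and all of the duo-3 and pad-1 windows, but 0 bases of the M01F1.8 window. Sequence at least 80% identical over at least 76 bp was found at 67 other places for W09B6.4, 83 for duo-3, 50 for F23B12.4 and 136 for pad-1, and at 1 other place for M01F1.8. The sources used here do not state how the authors placed reads that match several places, and its part in these peaks was not tested. Over all intronic regions, a similar sequence elsewhere was found for 14 of 61 final regions (23.0%, interval 14.2 to 34.9%) and 617 of 2899 weaker ones (21.3%, 19.8 to 22.8%). Windows more than 50% masked made up 9.84% of final and 31.9% of weaker regions.

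A tandem repeat joined the second pair. In the tbc-9 window printed above, the 12 bases aagatctacgaa occur 5 times, at steps down to 15 bp. The region in intron 7 of Y37E3.17, with a pooled signal of 100.1, held the same 12 bases, and its window aligned with that of tbc-9 at 79.5% identity over 146 bp. Y37E3.17 was also the 1 final region without a peak in replicate 2; its replicate 1 peak ranked 487. Of the 2899 weaker windows, 1 held these 12 bases. Sequence at least 80% identical over at least 76 bp was found at 29 other places for tbc-9 and 26 for Y37E3.17. The part of reads that match several places was not tested for these peaks either. The tbc-9 region had peaks of 216 in replicate 1 and 93.9 in replicate 2, at ranks 73 and 127.

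The summits of the other pair, klp-6 and ckb-2, lay inside annotated RNA genes. The summit in intron 2 of klp-6, which encodes a kinesin-like motor of ciliated neurons, lay inside srpr-2.2, 14 bp from the 5′ end of that ncRNA gene (chrIII:5031410-5031708, minus strand). The summit in the last intron of ckb-2, a choline kinase gene, lay inside srpr-1.2 (chrIII:4369468-4369766, plus strand), 145 bp from its 5′ end. The srpr genes are named for the RNA of the signal recognition particle, the complex that brings secreted proteins to the endoplasmic reticulum. The ckb-2 window aligned with the klp-6 region at 94.0% over the whole window. The klp-6 region had signals of 143 and 89.1 in replicates 1 and 2, and a pooled signal of 226. The ckb-2 region was lower in both, with 67.9 and 42.7, and 110.0 in the pooled list. The klp-6 window aligned with 7 annotated ncRNA genes in all, among them srpr-1.1, srpr-1.2 and srpr-2.1, over lengths that are not given.

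Other annotated RNA genes at the summit were more frequent among final regions. These genes are of classes that the rule did not exclude: ncRNA, piRNA, lincRNA, antisense RNA, miRNA, rRNA and pseudogene. The summit lay within 100 bp of one in 15 of 61 final regions (24.6%, interval 15.5 to 36.7%), against 234 of 2899 weaker regions (8.07%, 7.13 to 9.12%). Of the eligible intronic bases, 5.29% lie that close to such a gene. In 10 final regions (16.4%) and 120 weaker ones (4.14%) the summit lay inside the gene. The nearest gene was annotated as ncRNA in 13 of the 15, rpr-1 and the srpr genes included, an antisense RNA in 1 and a pseudogene in 1. The piRNA genes, which are by far the most numerous of these classes, were the nearest gene within 100 bp in 0 final and 28 weaker regions. The upper limit for a share of 0 in 61 was 5.92% by the Wilson interval.

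The strongest of the 15 marks a known RNA polymerase III gene. In ints-8, which encodes a subunit of the Integrator complex, the summit at chrI:13463971 lay inside rpr-1, the gene of the RNA subunit of ribonuclease P. It was 16 bp from the 5′ end of rpr-1 (chrI:13463955-13464207, plus strand), which runs against the host gene. This region had a pooled signal of 235, with 129.5 in replicate 1 and 105 in replicate 2.

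The pseudogene among the 15 is tRNA-like. The summit in intron 5 of unc-104, which encodes the kinesin that carries synaptic vesicle precursors along axons, lay at chrII:7001611. It was 16 bp before the predicted tRNA pseudogene C52E12.t1 (chrII:7001627-7001698, plus strand). The window printed above ends with the first part of that pseudogene, GGTTCGA included, and aligned with 33 annotated tRNA genes. The region had a pooled signal of 161, with 95.1 in replicate 1 and 62.0 in replicate 2. The Y57G11C.22 window (pooled signal 139) and the mdt-26 window (117; mdt-26 encodes a Mediator subunit) also held GGTTCGA, with no tRNA pseudogene within 100 bp. The B box core stood in 3 of 61 final windows (4.92%, interval 1.69 to 13.5%), 1.28% of weaker ones (0.927 to 1.75%) and 12.3% of all nuclear final windows.

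The other 11 regions at RNA genes had pooled signals from 103 to 127. The kin-20 region (casein kinase 1; pooled signal 127) lay 82 bp from F46F2.12, and the lin-42 region (the worm Period homologue of the moulting timer; 121) lay inside F47F6.15. The tax-6 region (calcineurin catalytic subunit; 123) lay 14 bp from C02F4.11, and the lin-14 region (a heterochronic transcription factor; 113) lay 4 bp from T25C12.7. The summit in gpb-1 (G protein beta subunit; 108) was inside F13D12.11, and that in lin-2 (a CASK-type scaffold protein; 105) inside F17E5.4. In let-526, which encodes an ARID subunit of SWI/SNF chromatin remodelling complexes, the summit lay inside the antisense RNA gene F48C1.15, with a pooled signal of 112. The remaining 4 regions of this group were those of ocrl-1 with C16C2.8, T28F4.1 with T28F4.7, F09A5.3 with F09A5.11 and Y72A10A.1 with C34H3.6. Of the 15 RNA genes, 4 lay on the strand of their host. The summit was within 50 bp of the RNA gene's 5′ end in 7 of 15 final regions (46.7%), against 73 of 234 weaker ones (31.2%).

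Among the 24 intronic regions in the stronger 50% of all final regions, 3 lay within 100 bp of such a gene (12.5%, interval 4.34 to 31.0%), those of ints-8, klp-6 and unc-104. Among the other 37 final regions there were 12 (32.4%, interval 19.6 to 48.5%), so the intervals overlapped. Counting any RNA gene or pseudogene of these classes within the host intron gave 25 of 61 final regions (41.0%, interval 29.5 to 53.5%) and 716 of 2883 weaker ones (24.8%, 23.3 to 26.4%). Such a count grows with intron length. Introns with a gene annotated as ncRNA made up 32.8% for final and 20.6% for weaker regions, and those with a piRNA gene 6.56% and 3.54%.

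Long first introns were the second setting. The host intron had a median length of 2655 bp in final regions (95% interval of the median 1447 to 4290 bp), against 1168 bp in weaker regions (1105 to 1242 bp). It was the first intron in 24 of 61 final regions (39.3%, interval 28.1 to 51.9%), against 684 of 2883 weaker regions (23.7%, 22.2 to 25.3%). These values take the shortest intron over each summit, and its transcript can start well inside the gene. With the longest intron instead, 18 of 61 final regions lay in a first intron (29.5%, interval 19.6 to 41.9%). That interval covers the share given for weaker regions, which were not recounted in this way. First introns hold 18.6% of the eligible bases. The summit was 733 bp from the nearest exon of the host transcript in the median final region and 303 bp in the median weaker one, and 8.20% and 24.5% lay within 100 bp of an exon. Position within the intron did not separate them: the summit lay 50.8% of the way through the intron in the median final region and 51.6% in the median weaker region. A typical annotated intron is far shorter than either, with a median of 68.0 bp over 109139 distinct protein-coding introns.

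With the shortest intron over each summit as host, the density of final regions was highest in introns that were both first and long. This density was not recounted with the longest intron. First introns of 3000 bp or more held 20 final regions in 2.48 Mb, which is 8.07 per Mb, and 382 weaker regions, which is 154 per Mb. Of the 20 final regions, 3 lay in pqn-41, 2 in unc-43 and others in mbk-2. Later introns of the same length held 9 final regions at 2.70 per Mb and 496 weaker regions at 149 per Mb. First introns under 3000 bp held 4 final regions at 1.68 per Mb, and later introns under 3000 bp held 28 at 1.57 per Mb. The share of regions that were final was 4.98% in long first introns (interval 3.24 to 7.56%) and 1.78% in long later ones (0.940 to 3.35%), so the intervals overlapped. By length alone, final regions reached 5.81 per Mb at 3000 to under 10000 bp and were at 0.579 per Mb in introns under 500 bp. In introns of 10000 bp or more, 2 final regions gave 1.72 per Mb.

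**Figure D2:**
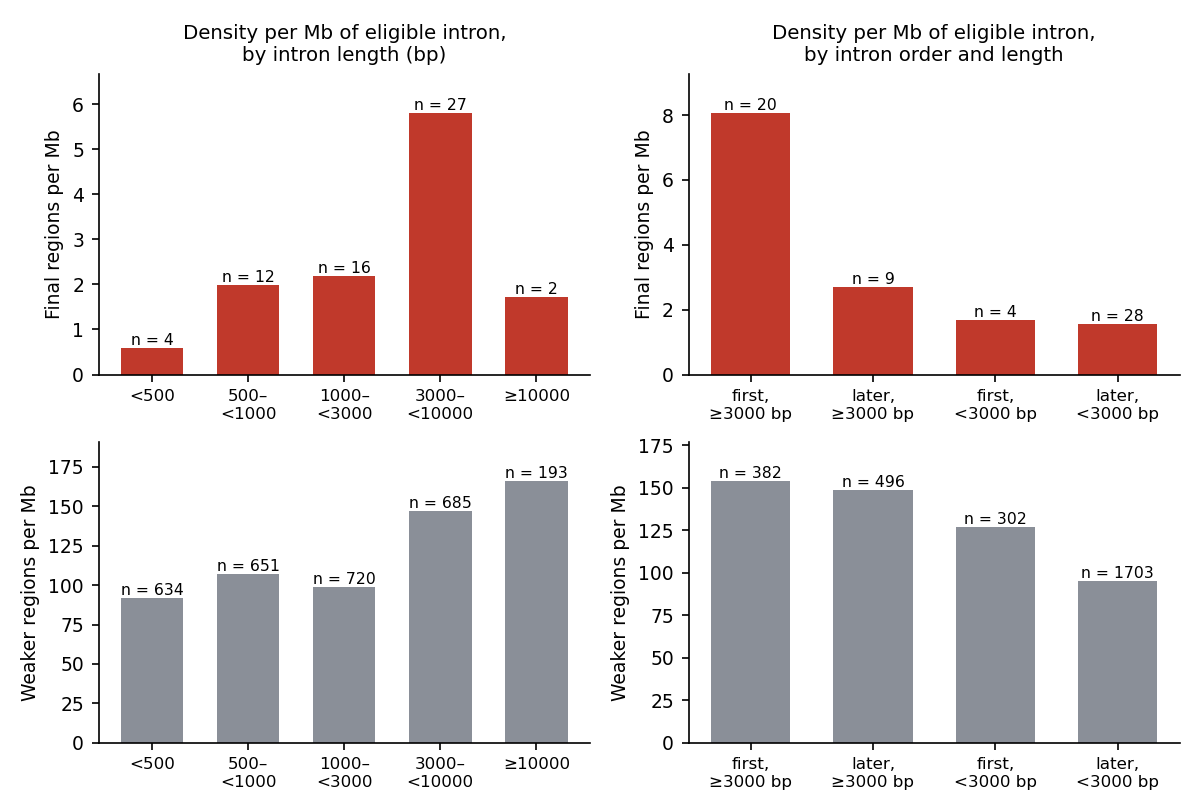
Final (upper row) and weaker (lower row) intronic regions per Mb of intron that fulfils the rule, by host intron length in bp (left) and by intron order and length (right); each bar gives its number of regions, and the rows differ in scale. Final regions reach 8.07 per Mb in first introns of 3000 bp or more. They stay under 3 per Mb in the other 3 classes of the right-hand panel. Weaker regions range from 95.2 to 154 per Mb across that panel. The host intron is the shortest over each summit.

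The host introns of stronger and of other final regions had overlapping intervals. The 24 intronic regions in the stronger 50% of all final regions had a median host intron of 1034 bp (interval 755 to 4567 bp), and 6 of them lay in a first intron (25%, interval 12 to 44.9%). The other 37 had a median of 3415 bp (1934 to 5029 bp), with 18 in a first intron (48.6%, 33.4 to 64.1%). Of the 24, 8 shared sequence with another final region, and 0 of these lay in a first intron. The other 16 of the 24 had a median host intron of 1661 bp (755 to 7776 bp). Of those 16, 6 lay in a first intron (37.5%, 18.5 to 61.4%), 5 of them in one of 3000 bp or more.

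In all, 7 genes hosted 2 or more final regions, and together they held 17 of the 61. The most were in mbk-2, which encodes a DYRK family kinase that acts at the transition from oocyte to embryo. This gene of 26804 bp (chrIV:13009158-13035961) held 15 intronic regions, 4 of them final, and 2030 genes hosted an intronic region in all. The final summits of mbk-2 had pooled signals of 109.7, 153, 101 and 127, in order along the gene. The first and second lay in intron 4 of transcript F49E11.1b.1, at 12310 and 13936 bp from the most upstream 5′ end. The others lay at 19467 and 20756 bp, in the first intron of transcript F49E11.1f.1.

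In pqn-41, a gene for a glutamine-rich protein with a part in the death of the linker cell, 3 of 8 regions were final and all were in the same 7776-bp intron. Their pooled signals along the gene were 179, 102 and 142, with 123, 60.4 and 82.0 in replicate 1 and 59.0, 45.7 and 60.9 in replicate 2. The strongest of these, whose window is printed above, holds GAGAGA on both strands and has 57.6% G or C. In unc-43, which encodes the calcium/calmodulin-dependent kinase CaMKII of neurons and muscle, 2 of 5 regions were final. They shared the 8328-bp first intron of transcript K11E8.1h.1, with pooled signals of 165 and 143.

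The other 4 genes with 2 final regions were hmt-1, W05H12.1, let-526 and Y45G5AM.9. In hmt-1, which encodes an ABC transporter of heavy metal tolerance, both summits were in late introns of under 1000 bp, introns 11 and 10 of 11. Their pooled signals were 260.0 and 253, and they ranked 131 and 134 in replicate 1 and 116 and 143 in replicate 2. The second of the printed hmt-1 windows holds AGGTCA at 2 places, each within a copy of nearly the same stretch, repeated in tandem. The let-526 regions (112 and 99.1) were in introns of different transcripts, and those of Y45G5AM.9 (155 and 104) in its intron 5 and the first intron of another transcript.

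**Figure D3:**
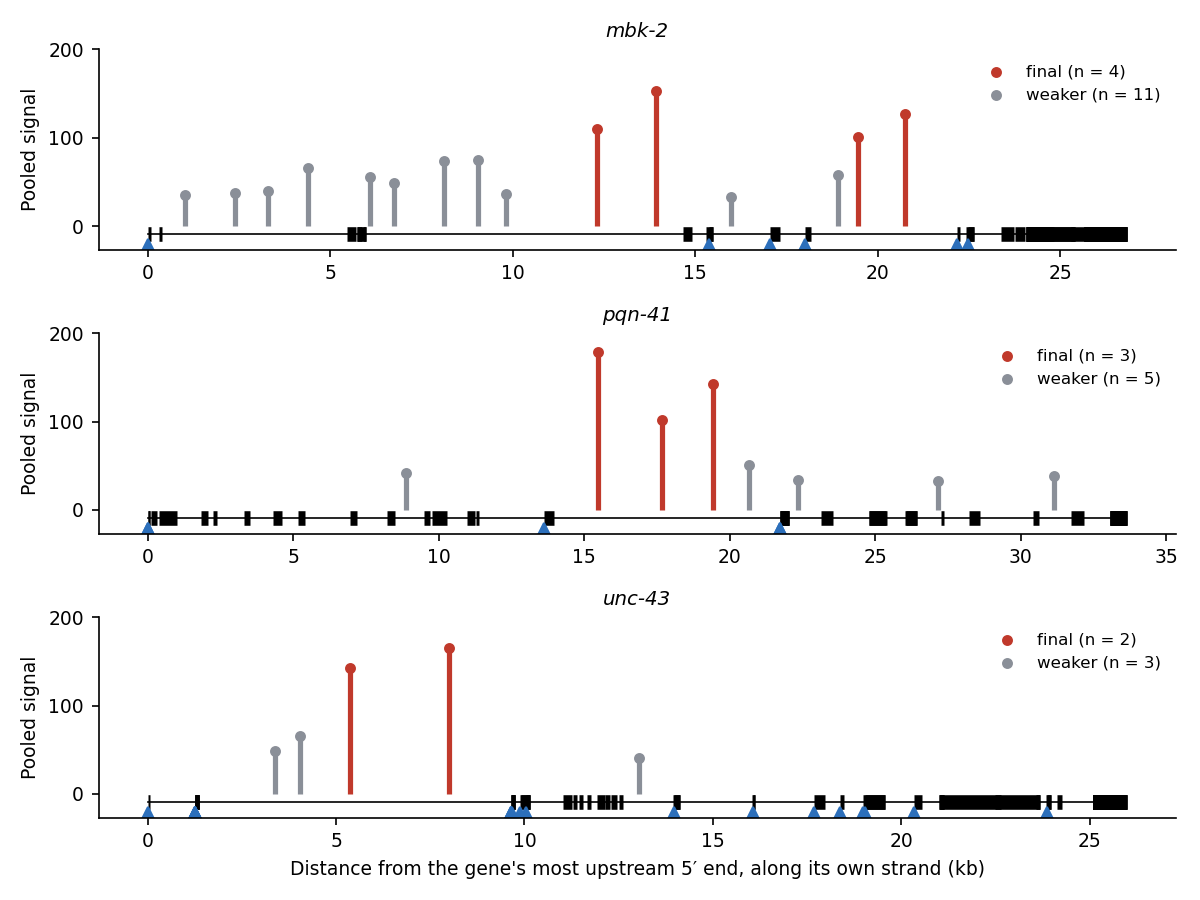
Intronic regions along mbk-2, pqn-41 and unc-43 by distance in kb from the most upstream 5′ end of each gene, on its own strand; stem height is the pooled signal, black boxes are exons of any protein-coding transcript and blue triangles are transcript 5′ ends. The 4, 3 and 2 final regions cluster within the longer introns, with signals from 101 to 179, among 11, 5 and 3 weaker regions of at most 75.

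Single final regions in first introns of 3000 bp or more lay in genes of several kinds. The lsy-22 summit (a Groucho-related corepressor) had a pooled signal of 134, in an intron of 11392 bp. That of hmr-1, the cadherin gene with an intron of 5253 bp, had a pooled signal of 108. The inso-1, gei-4 and Y62E10A.13 regions had pooled signals of 146, 100.2 and 108. In later introns, the mom-1 region, in the last intron of the Porcupine homologue needed for Wnt secretion, had a pooled signal of 171. The lin-17 region (a Frizzled receptor of Wnt signals) had 149, and the zfp-1 region (a PHD finger chromatin protein) had 113. The ben-1 region, in the first and 1015-bp intron of a beta-tubulin gene, had 169.7, and that of pssy-2, a phosphatidylserine synthase gene, 154.

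Lists of genes by tissue and function, written with earlier results of these data known, differed in how often they hosted intronic regions. Of all 19985 protein-coding genes, 10.2% hosted an intronic region and 0.255% a final one. Of 62 axon guidance and adhesion genes, 39 (62.9%) hosted a region, at 254 regions per Mb of their eligible introns against 112 per Mb over all genes, and 2 (3.23%) hosted a final one, hmr-1 and lin-17; 2 of their 111 regions were final. Of 57 synaptic and pan-neuronal genes, 28 (49.1%) hosted a region, at 156 per Mb, and 2 (3.51%), unc-104 and unc-43, a final one; 3 of their 56 regions were final. Of 231 homeobox and other developmental transcription factor genes, 52 hosted a region, at 186 per Mb, and lin-14 (0.433%) alone a final one. Of their 105 regions, 1 was final. Over all intronic regions, 2.06% were final. The other 11 lists had 0 final hosts. Among them, 35 of 274 nuclear receptor genes, the family of fax-1 itself, hosted a weaker region, at 106 per Mb, and 45 of 239 ion channel genes did, at 81.9 per Mb. Neurotransmitter receptor genes were at 99.2 per Mb. Body muscle and attachment genes reached 153 per Mb, while 0 of 32 germline genes and 1 of 26 intestinal genes hosted any. Host genes are long: the median gene length was 10667 bp for final and 8565 bp for weaker regions, against 2026 bp over all protein-coding genes, and host counts per list therefore follow gene length as well.

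Base composition separated final from weaker summits. The window at the summit had a median of 50.3% G or C in final regions (interval of the median 45 to 51.7%), against 37.7% in weaker regions (37.1 to 38.4%). In the window 500 bp to the right the medians were 37.1% and 35.8%. Over all nuclear regions the final summits had a median of 47.0% and the weaker ones 39.7%, so the medians lay further apart in introns. Final regions had the higher median in each class of intron length under 10000 bp, for example 51.7% in final and 41.7% in weaker regions at 3000 to under 10000 bp, and 43.0% in final and 35.8% in weaker regions at 500 to under 1000 bp. Sonication, amplification and sequencing can each depend on GC content, and their part in this difference was not tested.

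GAGAGA was the most frequent of the 8 short sequences searched. It stood, on either strand, in 18 of 61 final windows (29.5%, interval 19.6 to 41.9%), against 395 of 2899 weaker windows (13.6%, 12.4 to 14.9%). In the windows 500 bp to the right the shares were 8.20% and 7.76%. At the summit, GAGAGA stood in 17.1% of all nuclear regions. Among all nuclear final regions it stood in 24.9% (interval 22.0 to 28.1%), which lies within the interval for final regions in introns. By GC content the 2 sets stood apart at 55% G or C or more, where the sequence stood in 10 of 15 final (66.7%, interval 41.7 to 84.8%) and 15.2% of 132 weaker windows (10.0 to 22.2%). At 45 to under 55% it stood in 24.0% of 25 final and 26.4% of 674 weaker windows, and at 35 to under 45% in 11.1% of 18 final and 14.3% of 940 weaker ones. Under 35% it stood in 0 of 3 final and 5.46% of 1153 weaker windows. In first introns of 3000 bp or more, 10 of 20 final and 24.9% of 382 weaker windows held it.

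For the half-sites of the receptor class, the intervals of final and weaker regions overlapped. AAGTCA stood in 2 of 61 final windows (3.28%, interval 0.904 to 11.2%), those of W05H12.1 and srt-52, and in 4.83% of weaker windows (4.11 to 5.67%). In the windows 500 bp to the right it stood in 6.56% of final and 7.0% of weaker regions. AGGTCA stood in 3 of 61 final windows (4.92%, interval 1.69 to 13.5%) and in 4.42% of weaker ones (3.73 to 5.23%), and 500 bp to the right in 8.20% of final and 4.21% of weaker windows. The GATA-type sequence TGATAA stood in 3.28% of final and 9.07% of weaker windows, and the homeodomain core TAATTA in 6.56% and 8.73%. The E box CACGTG stood in 4.92% and 2.45%, and CAGCTG in 0 of 61 final windows (upper limit 5.92%) and 3.24% of weaker ones. A match is a match of letters in this window and says nothing on the binding of a factor.

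**Figure D4:**
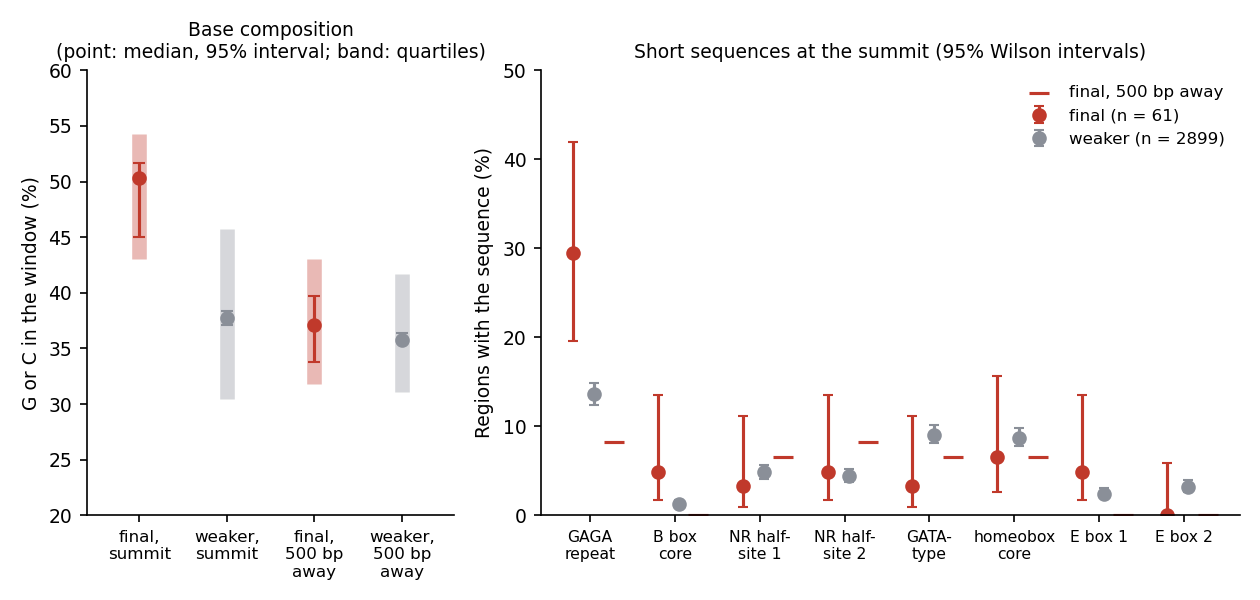
Left, percent G or C of windows reaching 75 bp to each side, at the summit and 500 bp to the right, final in red and weaker in grey (point, median with its 95% interval; band, quartiles). Right, percent of regions with each of 8 short sequences at the summit, with 95% Wilson intervals (NR, nuclear receptor: half-site 1 is AAGTCA and half-site 2 is AGGTCA); red dashes give final regions 500 bp away. Final summits stand at 50.3% G or C against 37.7%, and GAGAGA at 29.5% against 13.6%.

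Both replicates had a peak at nearly all final intronic regions, which follows largely from how the final list was made. That list was filtered for reproducibility between the same 2 replicates and holds the strongest pooled peaks. The counts and ranks below are therefore no independent support for the final regions. All 61 final regions overlapped a peak of replicate 1 and 60 one of replicate 2. Of the 2899 weaker regions, 74.3% overlapped a peak of replicate 1, 63.2% one of replicate 2 and 41.7% one of each. Across the 60 final regions with both, Spearman's rank correlation of the replicate signals was 0.47, against 0.69 across the 782 such final regions of the nuclear genome, which is a description over regions that share their libraries. The 2 sets differ in range of pooled signal, with quartiles of 109 and 161 in introns and 113 and 193 over all nuclear final regions. The part of this range in the 2 correlations was not tested. Of the 61, 37 were among the strongest 830 peaks of both replicates, 52 among those of replicate 1 and 46 among those of replicate 2. The lowest in replicate 2 with a peak were F28E10.1 at rank 2637, F09A5.3 at 2115, ocrl-1 at 1668, pad-1 at 1511 and lsy-22 at 1355, while in replicate 1 these 5 ranked between 342 and 529. The mom-1 region went the other way, with rank 507 in replicate 1 and 139 in replicate 2.

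No gap in signal separates final from weaker regions. The 3 weakest final regions, in C17E4.6, let-526 and Y37E3.17, had pooled signals of 99, 99.1 and 100.1. The 3 strongest weaker regions, in R03G5.6, ldb-1 and K01F9.2, had 97.6, 96.0 and 95.6. They lay in introns of 7576, 7606 and 4047 bp, and each window held GAGAGA. The weaker regions as a whole had a median pooled signal of 38.6, close to the floor of 31.6 of the pooled list.

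**Figure D5:**
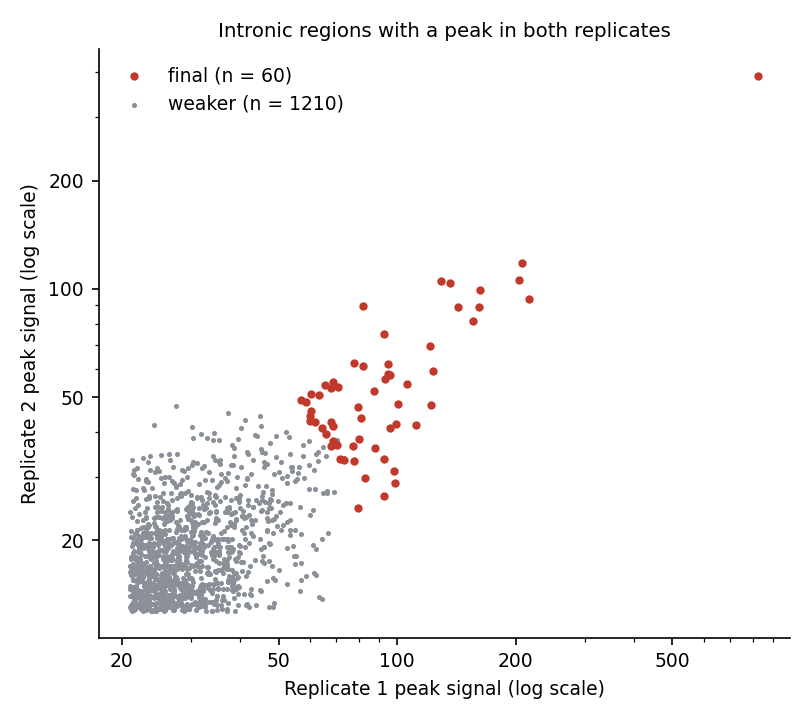
Peak signal in replicate 1 (horizontal) and replicate 2 (vertical), both on log scales, for the 60 final (red) and 1210 weaker (grey) intronic regions with a peak in both lists; signal is in the units of the authors' peak caller. M01F1.8 is the single point at 826 and 391, and the other final regions adjoin the weaker ones with no gap.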

How the data were processed

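Peaks of FAX-1 ChIP-seq in 2 biological replicates of late embryos were taken from the deposited ce11 lists: 15446 and 18555 peaks for replicates 1 and 2, 13841 for the pooled replicates and 830 after reproducibility filtering. Per the labels and metadata texts, the authors called peaks against a control file and filtered them by the irreproducible discovery rate (IDR). Each list holds a signal per peak, the authors' peak caller's enrichment, in the deposited seventh column, and the summit position in the tenth, which has no unit of its own beyond bp. The sources used here do not state the aligner, caller, IDR threshold or read depth. The floor of the signal differs between lists, so lists were compared by rank.

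Overlapping pooled rows were merged, and the row with the highest signal gave the summit. A region was final when it overlapped an IDR row by at least 1 bp. Genes came from Ensembl release 115 and sequence from the RefSeq genome, both WBcel235. Where several introns covered a summit, the shortest was the host intron; 16 regions, all weaker, lay in a gene but in no intron of a protein-coding transcript and have no intron values, and 39 regions lay in introns of more than 1 gene. Distances of 500 bp, windows reaching 75 bp to each side of the summit and a 100-bp limit for other RNA genes were used. Similar sequence was searched with BLAST 2.17.0 (word size 11, e-value 1e-05), counting hits of at least 80% identity over at least 76 bp. Pairs of final regions were not held to these 2 limits, and the distance used around the other summit was 150 bp. Membership and sequence search were tested on simulated positions and windows, and merging was compared with bedtools on the pooled list itself.

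Regions were compared by counts, shares with 95% Wilson intervals and medians with 95% order-statistic intervals, without a test, computed with scipy 1.17.1. The regions, the 14 gene lists and the sequences were chosen with earlier results of these data known; 13 names in the lists matched no gene, and 1 list and 1 host region are not reported here. Genes are named by rule: hosts of the 20 strongest final regions, hosts of 2 or more final regions, list members with a final region, regions at other RNA genes, and the 3 regions on each side of the final list's limit. Other hosts were picked with their values known. The ce10 lists were not used here.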

Additional observations from a re-analysis of the deposited data

How the results depend on the processing

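Of 116 alternative values for 9 results, 103 stayed within the 95% interval of the reported value, or within 1.5 times the reported count, and 13 moved. Counting only the stronger 50% of the nuclear final regions left 24 intronic ones, and their median host intron was 1034 bp (interval 755 to 4567 bp, which spans the medians of all final and of weaker regions). In that setting the first-intron share was 25%, the share with another RNA gene in the intron 29.2% and the share within 100 bp of one 12.5%. The cause was not tested. A distance of 1000 bp left 40 final regions, and keeping every pooled row apart gave 94. Leaving out summits in an exon of any gene, which by construction removes summits inside RNA genes, gave 29.4% with an RNA gene in the intron and 9.80% within 100 bp of one. Shorter and longer windows changed the sequence shares, as fewer or more bases were searched: GAGAGA stood in 13.1% of final regions in 51 bp and 54.1% in windows reaching 150 bp to each side, while AAGTCA and GGTTCGA each stood in 0 of 61 windows of 51 bp. With the strongest 830 peaks of a single replicate in place of the final list, the final regions numbered 61 to 68, with a median intron of 3107 to 3179 bp, 36.1 to 38.8% in first introns and 20.6 to 24.6% within 100 bp of another RNA gene. In those 2 settings, 32.8 to 44.3% had an RNA gene in the intron, GAGAGA stood in 36.8 to 37.7%, while AAGTCA stood in 2.94 to 3.28% and GGTTCGA in 4.41 to 4.92%. Alternatives without regions at RNA genes or with similar sequence elsewhere were chosen after seeing the data, and none of their 14 values moved. Without regions at RNA genes, the median intron was 1864 bp (1164 to 4290 bp) and the first-intron share 34.8% (22.7 to 49.2%). These intervals reach the values of all weaker regions, 1168 bp and 23.7%. Without regions with similar sequence elsewhere, the median was 3179 bp (1791 to 5029 bp) and the share 51.1% (37.2 to 64.7%). No paired analysis was possible because the 2 replicates form a single group and no result comes from a test. Read depth is unknown, and with 61 final regions the intervals of single shares are wide.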

Other observations

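Shares of final regions by chromosome ranged from 0.911 to 3.04%, with overlapping intervals. On chromosome I, 18 of 593 intronic regions were final (3.04%, interval 1.93 to 4.75%), on III 14 of 499 (2.81%, 1.68 to 4.65%) and on IV 13 of 514 (2.53%, 1.48 to 4.28%). On V, 4 of 439 were final (0.911%, 0.355 to 2.32%), on II 5 of 411 (1.22%, 0.521 to 2.82%) and on X 7 of 504 (1.39%, 0.674 to 2.84%). Weaker regions were at 95.6 per Mb of eligible intron on V and 112 to 117 per Mb on the others.

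Some short sequences were picked after the final windows had been read, so their counts describe these windows only. ACCTCAC stood in 7 of 61 final windows (11.5%) and 0.793% of weaker ones. The 7 lie in eif-3.I, hmt-1, ints-8, sfa-1, lin-17, Y71G12B.35 and pqn-41, and the sfa-1 and hmt-1 windows are among those printed. CACTGTGC stood in 6 of 61 final windows (9.84%) and 0.621% of weaker ones; its hosts were W09B6.4, duo-3 and F23B12.4, which share their sequence, and unc-43, mdt-26 and gei-4, which do not align with them. Over all nuclear final regions the shares were 2.30% and 2.55%.

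Several genes held many intronic regions and few or no final ones. The cadherin gene hmr-1 held 11, 1 of them final, and zfh-2, vab-1 and Y48C3A.5 held 9 each, with 0 final. The vab-1 gene, which encodes the ephrin receptor of the worm, is 18971 bp long, and unc-52, the gene of the basement membrane protein perlecan, held 8 regions in 37136 bp.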
